A study of Mus musculus with 12 samples.

Results

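The genes of mouse chromosome 11 were followed across 12 two-colour Agilent expression arrays of embryonic stem (ES) cells. Members were selected on signal: a gene entered when a probe with a chromosome 11 position on build mm7 was marked well above background in the same RNA on each array of a pairing, and its brightest such probe stood for it. The chromosome itself was chosen by its log2 ratio over wild type in clone 27G5. This gave 1605 genes of 19612 that passed the same filter across the array, with 17617 on the other placed chromosomes. The 1605 members lay between bases 3083835 and 122077899; 1093 were matched by accession and 152 by symbol to RefSeq on GRCm38, which placed 1242 of them on chromosome 11 and 3 elsewhere, and 360 kept the array's own name. A member could enter by passing in only 1 RNA, which favours but does not require a difference between the RNAs. Of the members, 1427 were measured in all 6 pairings.

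The cells were wild-type ES cells, 2 clones that lack Dicer (Dicer1-null 27G5 and Dicer1-null 27H10 in the labels, called Dicer-null here), and, from each clone, a line overexpressing Dnmt1 and a line overexpressing Dnmt3a and Dnmt3b together. The labels give gelatin-coated dishes and medium with leukemia inhibitory factor for all lines. The Dnmt lines carry the Dicer loss of their parent clone. Each clone was set against wild-type RNA, and each Dnmt line against its own Dicer-null parent. Every pairing was hybridised on 2 arrays with the dyes exchanged; the labels give both arrays the same pair of cell sources, and they count as 1 measurement, so each comparison has n = 2 clones and each clone is 1 line. The labels name 1 wild-type source for all 4 arrays that carry it, but do not say whether these arrays, or those sharing a Dicer-null source, received 1 extract, nor whether an RNA came from more than 1 culture. The 27G5 arrays of the Dnmt lines shared one slide and the 27H10 arrays another, so slide and clone cannot be told apart there, while all 4 arrays with wild-type RNA shared a slide.

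Dicer is the enzyme that cuts microRNA precursors, and Dnmt1, Dnmt3a and Dnmt3b are DNA methyltransferases. Chromosome 11 is a gene-dense chromosome that carries the Hoxb cluster of body-axis regulators, the type I keratin cluster, a cluster of CC chemokines and the tumour suppressors Trp53, Brca1 and Nf1. DNA was not measured in these samples. A log2 ratio here is the mean of the 2 arrays of a pairing, first-named RNA over reference, and the clone difference is the log2 ratio over wild type in 27G5 less that in 27H10, taken between arrays of the same dye orientation, so that a dye bias of a gene drops out, and so does the wild-type RNA if 1 extract served all 4 arrays; any difference between wild-type extracts would stay in it.

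Because clone differences were described down to single genes, the stretches just before the start of 8 of the most extreme genes are printed first, 4 that escaped the chromosome-wide clone difference described below and 4 that exceeded it. These examples hold, for both kinds of gene, starts with more and starts with fewer CG dinucleotides, which are the sites of DNA methylation. Each is the 100 bases before the RefSeq start on GRCm38.p6, with CG in capitals.
Grin2c (escaped; chr11:115267244-115267343, minus strand): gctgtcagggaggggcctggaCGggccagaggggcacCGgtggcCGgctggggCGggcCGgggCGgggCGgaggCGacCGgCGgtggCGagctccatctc
Ramp3 (escaped; chr11:6658433-6658532, plus strand): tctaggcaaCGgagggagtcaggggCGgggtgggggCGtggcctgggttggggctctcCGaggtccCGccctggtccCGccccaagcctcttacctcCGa
Olfr1383 (escaped; chr11:49523625-49523724, plus strand): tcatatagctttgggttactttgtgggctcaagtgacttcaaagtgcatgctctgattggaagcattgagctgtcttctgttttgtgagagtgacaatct
Cd300a (escaped; chr11:114889941-114890040, plus strand): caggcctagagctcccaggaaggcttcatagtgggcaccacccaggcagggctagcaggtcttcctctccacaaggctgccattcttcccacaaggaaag
Dhrs13 (exceeded; chr11:78032213-78032312, plus strand): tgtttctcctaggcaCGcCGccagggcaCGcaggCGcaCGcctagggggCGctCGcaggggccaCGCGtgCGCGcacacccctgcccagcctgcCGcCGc
Abca5 (exceeded; chr11:110337717-110337816, minus strand): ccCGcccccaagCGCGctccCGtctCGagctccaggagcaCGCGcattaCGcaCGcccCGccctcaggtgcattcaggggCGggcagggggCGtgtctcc
Asgr2 (exceeded; chr11:70092544-70092643, plus strand): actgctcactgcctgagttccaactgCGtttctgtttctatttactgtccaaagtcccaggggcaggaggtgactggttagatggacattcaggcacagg
Cldn7 (exceeded; chr11:69964679-69964778, plus strand): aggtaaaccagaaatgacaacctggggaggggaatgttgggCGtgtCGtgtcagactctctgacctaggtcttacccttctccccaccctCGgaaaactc
Over the 250 bases before the start, CG occurred 15 times in Grin2c, 13 in Ramp3, 0 in Olfr1383 and 1 in Cd300a. It occurred 23 times in Dhrs13, 25 in Abca5, 6 in Asgr2 and 6 in Cldn7, and the median of 27025 RefSeq promoters was also 6. CG is its own reverse complement, so a count on one strand holds for both.

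Over wild type, chromosome 11 stood apart in clone 27G5. The median log2 ratio of its 1504 measured members was 0.18, against -0.00 for the 16125 genes of the other chromosomes, a gap of 0.18 that corresponds to 1.14-fold. The gap was 0.19 on the first array and 0.17 on the dye-swapped array, and 66.7% of the members lay above the median of the other chromosomes. In clone 27H10, set against RNA of the same wild-type source, the median of 1550 members was -0.01 and the gap -0.01, with 48.0% of the members above. Both arrays of 27G5 thus lay well above both arrays of 27H10, whose gaps were -0.01 and -0.02. No other chromosome reached the value of chromosome 11 in 27G5: the others ran from -0.10 for chromosome 8 to 0.12 for chromosome 6. These ratios entered the choice of the chromosome and are given as a description, with no test.

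**Figure D1:**
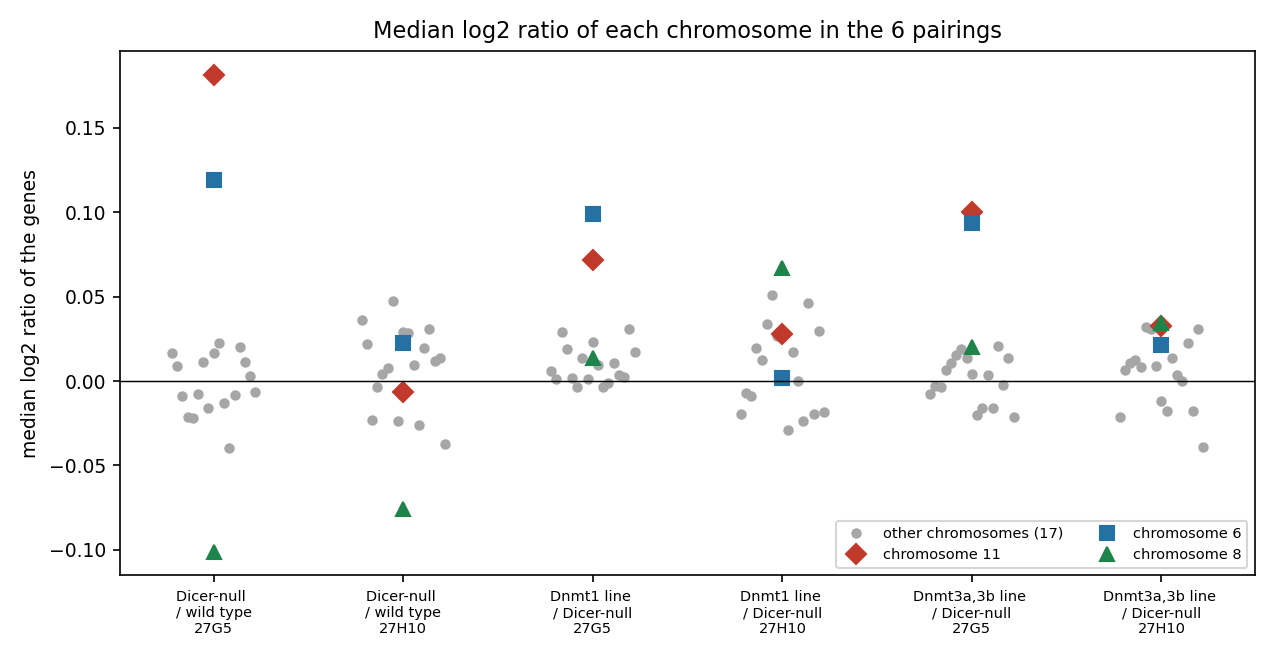
Median log2 ratio (vertical axis) of the genes of each of the 20 chromosomes in each pairing (horizontal axis); a point is 1 chromosome. Chromosome 11 is the highest in the 27G5 Dicer-null cells over wild type at 0.18 and lies at -0.01 in 27H10.

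The clone difference of chromosome 11 also lay above that of the other chromosomes. Its median over 1496 members was 0.22, with quartiles of 0.05 and 0.37, against -0.01 over 16046 genes elsewhere. Of the members, 84.0% lay above the median of the other genes. Chromosome 6 came next with a median of 0.13, and chromosome 8 lay at -0.04. Both array numbers showed it, with gaps of 0.23 and 0.21 between chromosome 11 and the rest.

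**Figure D2:**
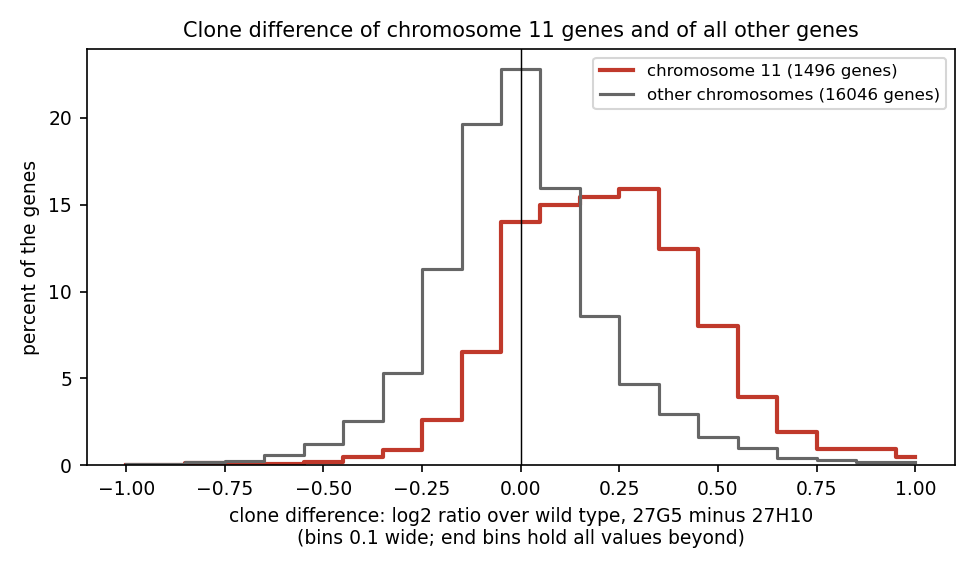
Percent of genes (vertical axis) by clone difference in log2 units (horizontal axis, bins 0.1 wide) for chromosome 11 and for all other placed chromosomes. The curve of chromosome 11 is displaced to the right as a whole, with a median of 0.22 against -0.01, and its left side overlaps the other genes.

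The displacement was present in every 10 Mb stretch. Divided into 13 stretches of 10 Mb, chromosome 11 lay above the other chromosomes in 13 of 13 stretches in 27G5 over wild type, by 0.05 to 0.32, and in 6 of 13 in 27H10, between -0.05 and 0.05. By clone difference, again 13 of 13 stretches lay above, from 0.10 in the stretch from 10 to 20 Mb, which holds only 25 members, to 0.29 in the stretch from 70 to 80 Mb, where 200 members were measured. A running median over 15 neighbouring members was above 0 in each of its 1482 windows for the clone difference, but in 85.0% of 1490 windows for the ratio over wild type in 27G5, where the lowest window had -0.49, and in 44.5% of 1536 windows in 27H10.

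**Figure D3:**
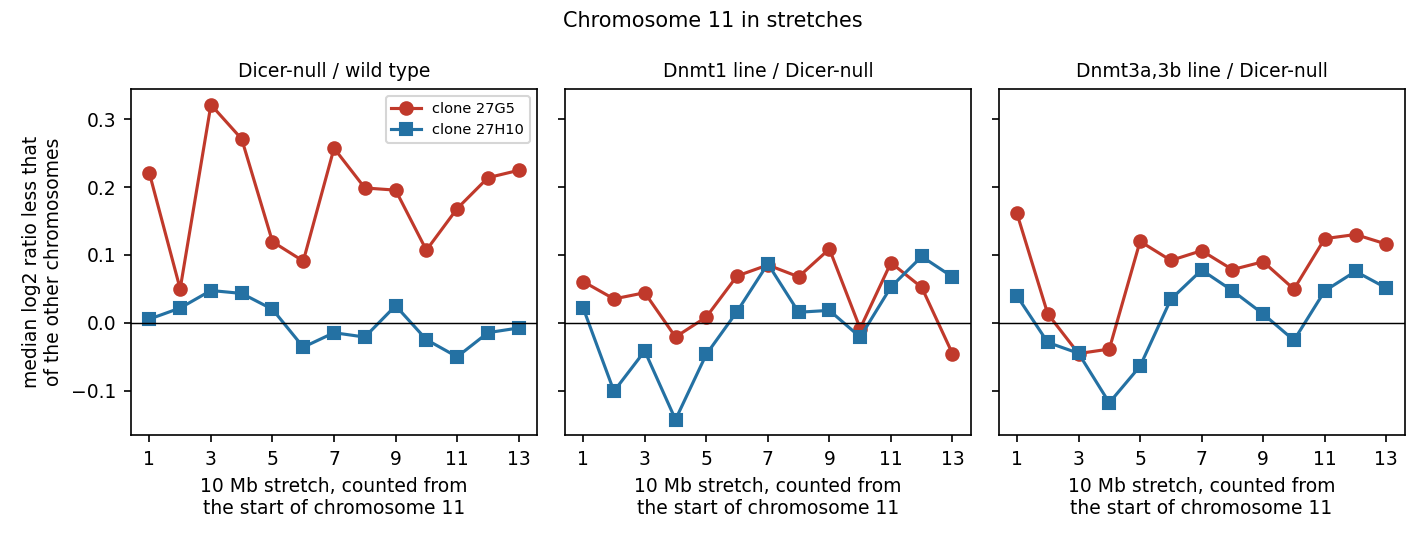
Median log2 ratio of the members of each 10 Mb stretch less that of the other chromosomes (vertical axis), by order of the stretch along the chromosome (horizontal axis), in both clones. In the left panel all 13 points of 27G5 lie above 0, from 0.05 to 0.32, and those of 27H10 lie between -0.05 and 0.05.

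The Dnmt lines of 27G5 also lay above wild type over chromosome 11. Adding the ratios of a clone gene by gene gives each Dnmt line over wild type, as far as the Dicer-null RNA was the same in both pairings: the chromosome 11 median was 0.25 in the Dnmt1 line and 0.26 in the Dnmt3a,3b line of 27G5, against 0.01 and -0.01 on the other chromosomes. Chromosome 6 had sums of 0.23 and 0.21 in these lines. In 27H10 the chromosome 11 sums were 0.01 and 0.01, beside 0.01 and 0.01 elsewhere. The sums contain the ratio by which the chromosome was chosen and are a description. Directly over the Dicer-null parent, the gap between chromosome 11 and the rest was 0.06 in the Dnmt1 line and 0.09 in the Dnmt3a,3b line of 27G5, and 0.02 and 0.02 in 27H10. For the Dnmt3a,3b line of 27G5 the arrays gave 0.13 and 0.06, and for the Dnmt1 line of 27H10 they differed in sign, at 0.0321 and -0.0039. Chromosome 6 had like medians in these lines of 27G5, 0.10 and 0.09, while the chromosome 11 medians were 0.07 and 0.10.

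Signal strength went with the size of the shift. With the members divided into 3 classes of signal, the median clone difference exceeded that of equally bright genes elsewhere by 0.08 among 432 dim members, by 0.27 among 535 of middle signal and by 0.32 among 529 bright members. An offset added in background correction draws the ratios of dim spots towards 0, and its part in this order was not tested. Bright and dim probes of some genes also differed. The genes printed here were picked for an extreme clone difference at their brightest probe. A further probe could thus read less extreme whatever its signal, and nothing about signal is read from these genes. For each probe, the first 30 of 60 bases are printed, because they show that separate stretches of a gene were read.
Limd2, bright probe (mean log2 signal 14.0; chr11:106267096-106267155 on mm7): ggcagtagctatgctcctccatctgttgtg
Limd2, dim probe (mean log2 signal 7.14; chr11:106265688-106265747 on mm7): tgtaaaaattcccaccaccacctttaaccg
Cpsf4l, bright probe (mean log2 signal 13.5; chr11:113807288-113807347 on mm7): cagactgctatgggtcaacggcctcaagtg
Cpsf4l, dim probe (mean log2 signal 6.52; chr11:113812194-113812253 on mm7): tcagcaagcaaggagtaacattccccatga
Itgb4, bright probe (mean log2 signal 12.5; chr11:116117288-116117347 on mm7): cataaagtgggtagaggtgatacaaggtct
Itgb4, dim probe (mean log2 signal 6.83; chr11:116103618-116103677 on mm7): tggacagatatctactgaaaccatccttgt
The clone difference was 0.87 by the bright and 0.07 by the dim probe of Limd2, and 0.87 and 0.13 by those of Cpsf4l. For Itgb4 the bright probe gave -0.79, a second bright probe that overlaps it -0.77, and the dim probe 0.28. The escape of Itgb4 thus rests on overlapping probes.

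Escape was counted in 2 ways. By the ratio rule, a member escaped the 27G5 shift when its ratio over wild type was at or below the median of the other chromosomes on both arrays, which held for 379 of 1504 members (25.2%), against 38.2% of the genes elsewhere and 40.5% of the members by the same rule in 27H10. Of these, 352 were at or below that median on both arrays of 27H10 as well, which is 23.5% of 1496 members measured in both clones, against 32.8% elsewhere. By the clone difference rule, 143 of 1496 members (9.56%) had a clone difference at or below the median of the other genes at both array numbers, against 35.5% elsewhere, and 50 members (3.34%, against 15.3%) met both rules. By clone difference, 23 members (1.54%, against 9.26% elsewhere) lay at least 0.25 below and 6 (0.401%, against 1.51%) at least 0.5 below, while 0 lay at least 1 below, as 10 genes did elsewhere. At the other side, 523 members (35.0%) lay at least 0.25 above at both array numbers, against 8.43% of other genes.

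Other probes of the same genes kept the distinction in part. Where an escaping member by clone difference had further passing probes, 20 of 45 of these (44.4%) escaped too, against 25 of 629 (3.97%) of the further probes of members that did not escape. By the ratio over wild type the shares were 83 of 122 (68.0%) and 56 of 557 (10.1%). Such shares were not counted for genes elsewhere. Further probes were read on the same arrays and can overlap the first, as in Itgb4. Among the members nearest the threshold of the ratio rule, Card14 (-0.07 and -0.01 on the 2 arrays) and Sebox (-0.00 and -0.07) were just inside it, and Trim7 (-0.11 and -0.00) and Eml6 (-0.19 and -0.00) just outside.

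The lowest clone differences included those of the following members, which escaped by the clone difference rule; Itgb4 and Grin2c lay above the other chromosomes by their ratio in 27G5. Itgb4, the integrin subunit that anchors epithelial cells to laminin, read 0.82 and 0.98 over wild type in 27G5 and 1.72 and 1.66 in 27H10, so that both 27G5 arrays lay below both 27H10 arrays. Ramp2 and Ramp3, small partners of the calcitonin-receptor-like receptor, both escaped. Ramp2 (chr11:101357227-101357286) read -0.70 and -0.38 in 27G5 and 0.18 and 0.28 in 27H10, a clone difference of -0.78. Ramp3 (chr11:6629300-6629359) was well below wild type in both clones, at -2.04 and -2.09 in 27G5 and -1.63 and -1.73 in 27H10, and differed by -0.39. The promoter of Ramp3 printed above is rich in CG, whereas the odorant receptor gene Olfr1383, with no CG before its start, read -0.17 and -0.36 in 27G5 and 0.33 and 0.01 in 27H10. Grin2c, a subunit of the NMDA glutamate receptor, read 0.39 and 0.64 in 27G5 and 1.11 and 1.32 in 27H10.

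Further members that escaped by clone difference were a secreted protein, transcription factors and a receptor. Ntn1, the axon guidance protein netrin, read 0.18 and -0.14 in 27G5 and 0.62 and 0.49 in 27H10. Etv4, an ETS transcription factor, read -1.92 and -2.14 in 27G5 and -1.59 and -1.70 in 27H10. Next to it lies Meox1, a homeobox gene of the somites, with -0.75 and -0.92 in 27G5 and -0.12 and -0.36 in 27H10; its second probe gave a clone difference of -0.40 beside -0.60. Cd300a, an inhibitory receptor of white blood cells, had a clone difference of -0.42; a second, dimmer probe gave -0.03. The longest runs of neighbouring escapees held 3 genes, one of them from the milk protein gene Wap to Ramp3, and Etv4 with Meox1 and the interferon-induced GTPases Igtp and Irgm2 formed runs of 2. Between stretches, the share that escaped by clone difference ran from 6 of 200 members (70 to 80 Mb) to 6 of 24 (10 to 20 Mb).

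The members that exceeded the shift were of mixed kinds. Asgr2, a subunit of the liver receptor for desialylated glycoproteins, read 1.80 and 2.44 in 27G5 and 0.46 and 0.79 in 27H10, and its clone difference of 1.49 was the highest of the chromosome. The tight junction protein Cldn7 read 0.18 and 0.05 in 27G5 and -0.90 and -0.83 in 27H10. Dhrs13, a short-chain dehydrogenase, read 0.14 and 0.13 against -0.91 and -0.85. Sphk1, which makes sphingosine 1-phosphate, read -0.21 and 0.42 against -1.18 and -0.69, a clone difference of 1.04, with 0.40 by its dimmer probe. In each of these 4 genes both 27G5 arrays lay above both 27H10 arrays. Abca5, a lipid transporter, had 0.98 by its brightest probe, but its other probes gave 0.48 and 0.10, the second of them from a dim spot.

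**Figure D4:**
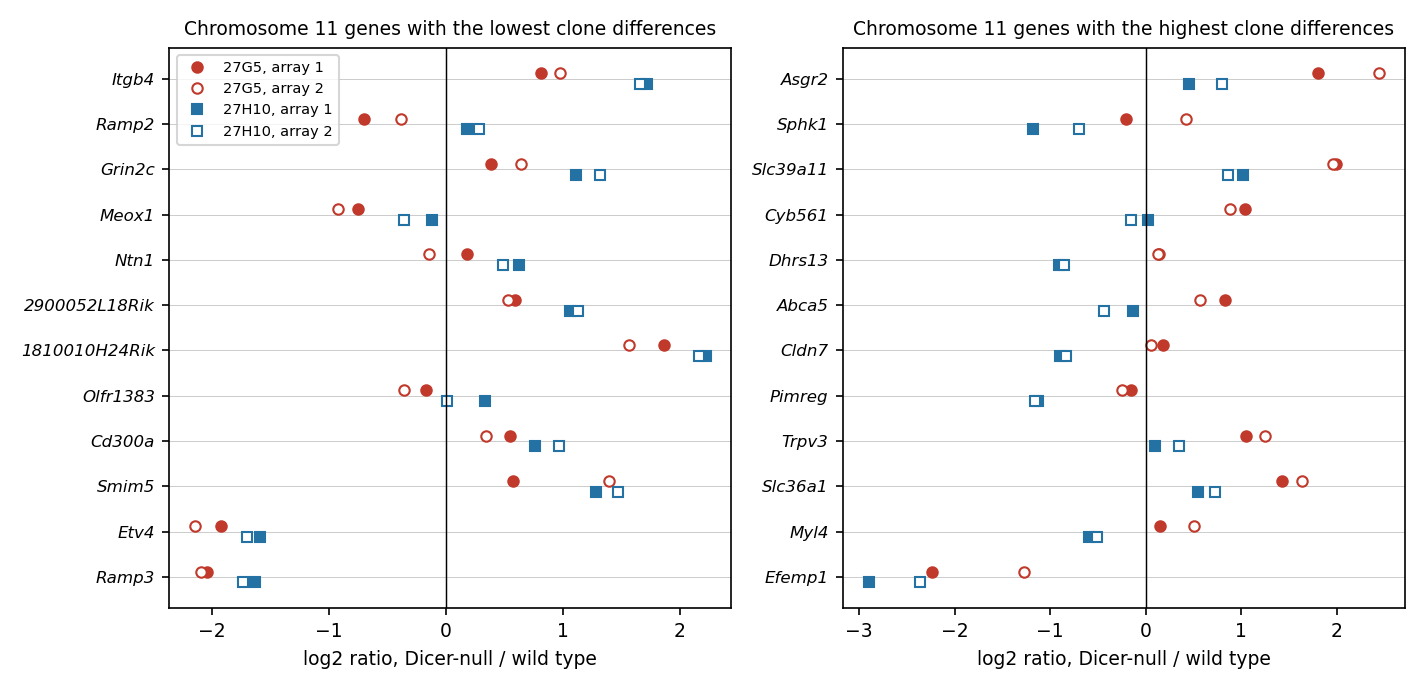
Log2 ratio of Dicer-null over wild type (horizontal axis) on every array for the 12 escaping members with the lowest clone differences (left) and the 12 members with the highest (right); circles are 27G5, squares 27H10, and open symbols the dye-swapped array. For Ramp2 the 27G5 arrays lie at -0.70 and -0.38 and the 27H10 arrays at 0.18 and 0.28, while for Asgr2 27G5 lies at 1.80 and 2.44 and 27H10 at 0.46 and 0.79.

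Of 34 bright genes of the ribosome, translation and proteasome list, 33 had a positive clone difference, with a median of 0.30; of all 529 bright members, 482 were above 0, with a median of 0.30. Rpl19, a protein of the large ribosomal subunit, had ratios that depended on the dye: -0.41 and 1.33 on the arrays of 27G5 and -0.66 and 0.98 on those of 27H10, with a clone difference of 0.30. The proteasome subunit Psmd3 had 0.34. In the cell division list 23 of 23 measured genes were above 0, and 0 escaped. Among them was Aurkb, the mitotic kinase of the chromosomal passenger complex, with 0.47. Of these 23 genes 17 were bright, and of all 529 bright members 482 were above 0 and 24 escaped. In the RNA processing list 5 of 30 escaped by clone difference, beside 143 of all 1496 members, and the median was 0.26, beside 0.22. Of these 30 genes 26 were bright, and 4 of the 26 escaped, beside 24 of all 529 bright members. The median of these 26 was 0.27, beside 0.30. The lipid and central metabolism list had the highest median of the 12 lists, 0.35 over 42 measured genes, with Fasn, the fatty acid synthase, at 0.31 and the nucleoside diphosphate kinase Nme1 at 0.61.

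Developmental regulators had the lowest clone differences of the 12 lists. The list of the Hoxb cluster and developmental transcription factors had a median clone difference of -0.01 over 31 measured genes, and 11 of them escaped. Of all 1496 members 143 escaped, and of the 432 dim ones 62. These genes were also dim: 16 of the 31 were in the dim class, where the list median was -0.04 beside 0.08 for all dim members. The 12 genes of middle signal had a median of 0.15 beside 0.25 for all such members, with 8 of 12 above 0. Of these 12 genes 4 escaped, beside 57 of all 535 members of middle signal. The 3 bright genes had a median of -0.02 beside 0.30 for all bright members, with 1 above 0, and 0 of them escaped. Of the 5 Hoxb genes measured in both clones, 2 were above 0: Hoxb9 with 0.22 and Hoxb7 with 0.19, while Hoxb3 had -0.15. The cytokine, chemokine and interferon list had the next lowest median, 0.07 over 19 genes, of which 5 escaped. The part of low signal in either list was not tested.

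In the RefSeq promoter table, 912 of the 1496 members measured in both clones had an entry. At least 10 CG dinucleotides in the 250 bases before the start were found in 48.4% of 64 escaping members by clone difference. The share was 77.1% among 719 members above the other chromosomes at both array numbers. It was 72.7% among all 912 members and 38.2% among all 27025 promoters of the table. Among the brighter 456 of these 912 members, the shares were 76.9% of 13 escaping and 84.8% of 413 above, beside 84.2% of all 456. The brighter escapees are few, and no test was made.

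Over both clones, the Dicer-null cells had 339 members called higher than wild type and 237 called lower of 1590 tested, by limma with Benjamini-Hochberg adjustment over all 19461 genes (adjusted p under 0.05). The members' shares were 21.3% and 14.9%, beside 20.4% and 20.2% of all genes; since 27G5 over wild type led to the choice of this chromosome, nothing is read from these counts. The targeted gene, Dicer1 on chromosome 12, read -4.13 and -4.02 by 1 probe and -0.50 and -0.56 by the other in 27G5 and 27H10. In the keratin, matrix and cell shape list, 7 of 35 members were called higher and 12 lower. Col1a1, the main chain of fibrillar collagen, read -4.00 in 27G5 and -4.18 in 27H10, and its other probes -1.60 and -1.75, and -0.01 and 0.02. Pmp22, a protein of myelin and epithelial membranes, read -3.07 and -3.29, and Timp2, an inhibitor of matrix metalloproteases, -2.61 and -2.85. Col1a1 is itself 1 of 10 fibroblast markers, of which 9 were measured. Their medians over wild type were -0.47 in 27G5 and -0.89 in 27H10. They ranged from -4.00, the value of Col1a1, to 2.22 in 27G5, and from -4.18, again Col1a1, to 1.82 in 27H10. The part of such cells in the collagen value was not tested. ES cell markers were present: 10 of 11 measured were well above background in the Dicer-null RNA of 27G5 and 11 of 11 in 27H10.

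Among the highest members over wild type were Osm, the cytokine oncostatin M, a relative of leukemia inhibitory factor, with 2.30 and 2.05 (1.62 and 1.44 by its other probe), and Lgals3bp, a secreted galectin-binding glycoprotein, with 2.30 and 2.61. Mapt, the microtubule protein tau, read 2.46 in 27G5 and 1.72 in 27H10, a clone difference of 0.74. Alox12e, an epidermal lipoxygenase, was the highest member and read alike in both clones, at 3.44 and 3.46. A pair of Wnt ligands on the chromosome went opposite ways in both clones. Wnt3a read 1.67 and 1.67, and Wnt3 -2.08 and -2.05, or -3.10 and -2.95 by its other probe. Grb10, an imprinted adaptor that limits insulin signalling, read -1.33 and -1.86, but its other probes 0.34 and -0.01, and -1.21 and -1.39.

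Overexpression of the methyltransferases was compared with the Dicer-null parent in 2 clones each. In the Dnmt1 lines 196 of 1590 members (12.3%) were called higher and 126 (7.92%) lower, beside 12.1% and 10.8% of all genes. In the Dnmt3a,3b lines 190 (11.9%) were called higher and 109 (6.86%) lower, beside 10.5% and 10.5%. The shares called higher were near the background in both, and the shares called lower were below it. With the chromosome 11 median of each pairing taken off its ratios, 188 of 1590 were called higher and 160 lower in the Dnmt1 lines. In the Dnmt3a,3b lines these counts became 173 and 154. The number called lower thus depended on the chromosome median, and nothing about the members is read from it. Both comparisons share their Dicer-null source with each other and, as reference in place of sample, with the ratios over wild type, so like values in both Dnmt lines, or opposite ones over wild type, are not independent. Every call in the Dnmt3a,3b lines, those of the genes named below included, was lost when the ratio of either clone was left out (lowest limma adjusted p 0.05011 without 27H10 and 0.0542 without 27G5).

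Shroom1 was the member with the highest ratio in both comparisons. Shroom1, an actin-binding protein, had log2 ratios of 4.20 and 2.09 in the Dnmt1 lines of 27G5 and 27H10 (mean 3.14 ± 1.49, SD, n = 2; limma adjusted p = 0.011) and 3.13 and 2.57 in the Dnmt3a,3b lines (2.85 ± 0.39; limma adjusted p = 0.014). The clones differed by 2.11 in the Dnmt1 lines, with both above 0. Septin4, a filament-forming GTPase, rose to 2.20 and 1.99 (2.10 ± 0.15; limma adjusted p = 0.0021) and to 2.15 and 1.72 (1.94 ± 0.30; limma adjusted p = 0.0029). Pmp22 rose by 1.64 ± 0.13 and 1.68 ± 0.11 (limma adjusted p = 0.0018 and 0.0023), and Trpv2, a cation channel, by 1.78 ± 0.48 and 1.59 ± 0.17 (limma adjusted p = 0.0043 and 0.0056). Septin4 and Pmp22 were below wild type in the Dicer-null cells, at -2.34 ± 0.21 and -3.18 ± 0.16.

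Ccl2 and Serpinf1, which encode secreted proteins, came next to Shroom1 in the Dnmt3a,3b lines. Ccl2, a chemokine that draws monocytes, read 1.89 and 1.56 in the Dnmt1 lines (1.73 ± 0.24; limma adjusted p = 0.0018) and 2.45 and 2.37 in the Dnmt3a,3b lines (2.41 ± 0.06; limma adjusted p = 0.0015). Its neighbour Ccl7 was not well above background in the Dicer-null RNA on any array of these pairings. In the mean of both clones it was at least 3.61-fold higher in the Dnmt3a,3b lines (limma adjusted p = 0.0083). A single clone can lie below this bound, which was set by the lowest signal well above background on each array. In the Dnmt1 lines Ccl7 was by the same mean at least 1.68-fold higher without passing the test (limma adjusted p = 0.073). The second probe of Ccl7 read 1.38 in the Dnmt3a,3b lines (1.81 in 27G5 and 0.945 in 27H10) and 0.46 in the Dnmt1 lines. Serpinf1, an inhibitor of new vessel growth, rose by 1.99 ± 0.43 and 2.33 ± 0.15 (limma adjusted p = 0.0056 and 0.0046); its second probe gave 1.45 and 1.74. Stat5b, a cytokine-activated transcription factor, rose by 1.69 ± 0.43 and 1.48 ± 0.69 (limma adjusted p = 0.013 and 0.019), whereas its other probes gave 0.65 and 0.25 in the Dnmt1 lines. Without the 27H10 ratio the Stat5b call in the Dnmt1 lines was lost (limma adjusted p = 0.078).

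Hand1, a transcription factor of trophoblast giant cells and the heart, rose by 1.68 ± 0.33 in the Dnmt1 lines and 1.55 ± 0.11 in the Dnmt3a,3b lines (limma adjusted p = 0.0029 and 0.0036). It is 1 of 12 trophoblast markers, of which 10 were measured; their median log2 ratio was 1.78 and 1.63 in the Dnmt1 lines and 1.55 and 1.63 in the Dnmt3a,3b lines of 27G5 and 27H10, ranging from -0.22 to 3.53 over the 4 ratios. Over wild type these markers had medians of -1.20 and -1.08, and Hand1 -1.59 and -1.41. The part of such cells in the other rises on the chromosome was not tested.

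**Figure D5:**
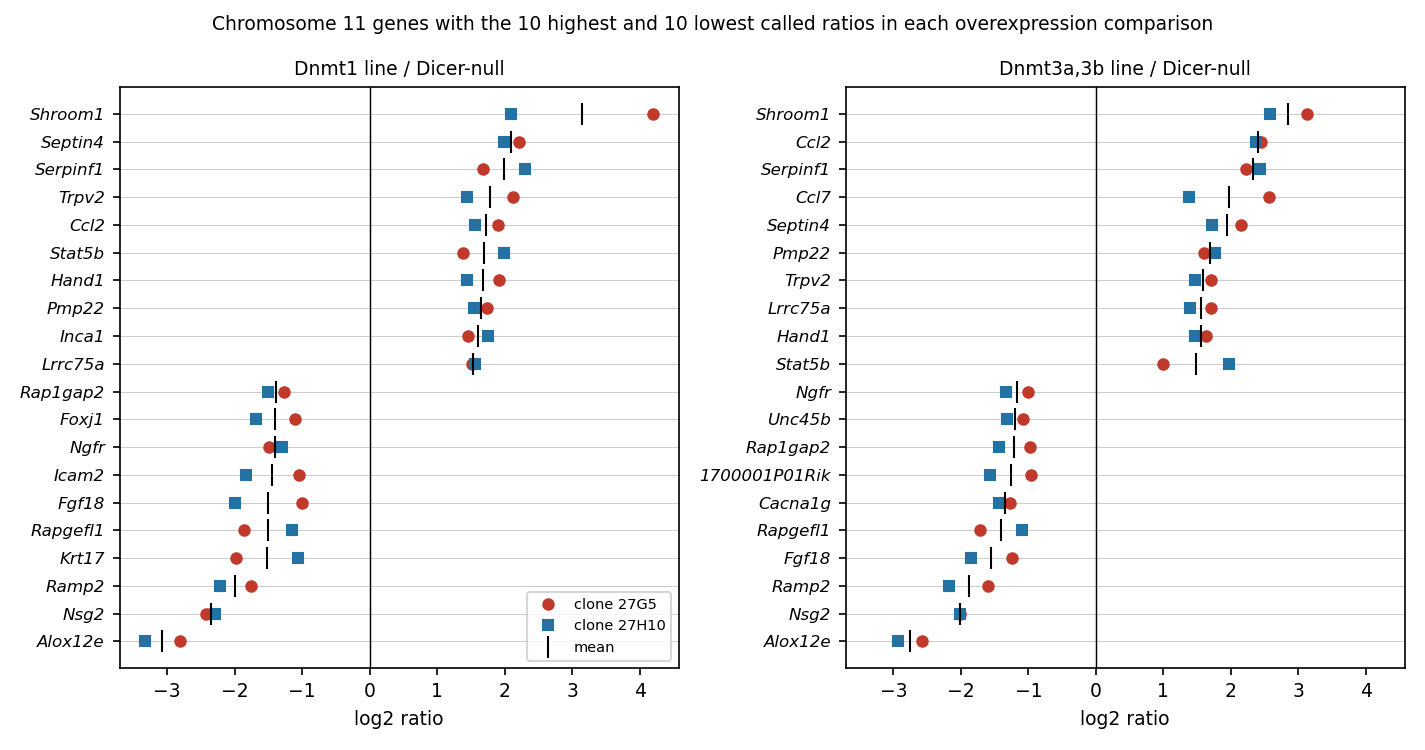
Log2 ratio (horizontal axis) of each Dnmt line over its Dicer-null parent for the 10 highest and 10 lowest called members of each comparison; circles are 27G5, squares 27H10 and bars the mean of both. Shroom1 heads both panels, with 4.20 and 2.09 on the left, and Alox12e is the lowest in both. Ccl7, at the background in the Dicer-null RNA, is drawn at its measured ratio.

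Alox12e was the member with the lowest ratio in both comparisons. It fell, to -3.07 ± 0.36 and -2.75 ± 0.24 (limma adjusted p = 0.0018 and 0.0021). Nsg2, an endosomal protein of neurons, read -2.43 and -2.29 in the Dnmt1 lines (limma adjusted p = 0.0011) and -2.01 and -2.02 in the Dnmt3a,3b lines (limma adjusted p = 0.0015). Ramp2, one of the escapees, fell, to -1.99 ± 0.32 and -1.88 ± 0.41 (limma adjusted p = 0.0063 and 0.0075) and read lower in 27H10 in both. Ngfr, the low-affinity neurotrophin receptor, fell, to -1.40 ± 0.14 and -1.17 ± 0.22 (limma adjusted p = 0.0028 and 0.0040), with -0.52 and -0.42 by its second probe, and the growth factor Fgf18 fell, to -1.50 ± 0.71 and -1.55 ± 0.43 (limma adjusted p = 0.015 and 0.014). The Fgf18 call in the Dnmt1 lines was lost without 27H10 (limma adjusted p = 0.051). Krt17, a type I keratin, read -1.98 in 27G5 and -1.06 in 27H10 in the Dnmt1 lines (-1.52 ± 0.65; limma adjusted p = 0.027) and lost its call without 27G5 (limma adjusted p = 0.12). Meox1 was not well above background in either Dnmt line. In the mean of both clones it was at least 1.84-fold and at least 2.03-fold lower there (limma adjusted p = 0.039 and 0.036). Without 27H10 the first of these calls was lost.

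Of all genes tested, 12.1% were called higher and 10.8% lower in the Dnmt1 lines, and 10.5% and 10.5% in the Dnmt3a,3b lines. Of the regulators of chromatin, 24 were tested, with 3 called higher and 4 lower in the Dnmt1 lines and 3 and 3 in the Dnmt3a,3b lines. Suz12, a core subunit of the Polycomb complex that methylates histone H3, read -0.53 and -0.39 in the Dnmt1 lines (limma adjusted p = 0.027) and -0.57 and -0.60 in the Dnmt3a,3b lines (limma adjusted p = 0.015). Its second probe gave -0.06 and -0.09, and the Dnmt1 call was lost without either clone (limma adjusted p = 0.071 and 0.096). Chd3, a remodeller of the NuRD complex, rose by 1.20 ± 0.27 and 1.13 ± 0.14 (limma adjusted p = 0.0054 and 0.0065), though its other probes ranged from 0.26 to 1.06 in the Dnmt1 lines. Of 35 developmental regulators, 7 were called higher and 5 lower in the Dnmt1 lines and 9 and 6 in the Dnmt3a,3b lines. Besides Hand1 and Stat5b, these included Hlf, a leucine zipper factor, which fell, to -0.96 ± 0.15 and -1.07 ± 0.05 (limma adjusted p = 0.0048 and 0.0042), and Foxj1, the regulator of motile cilia, which fell, to -1.40 ± 0.41 and -1.02 ± 0.14 (limma adjusted p = 0.0052 and 0.011).

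The counts of the remaining lists stand beside the same shares of all genes, 12.1% higher and 10.8% lower in the Dnmt1 lines. In the Dnmt3a,3b lines these were 10.5% and 10.5%, and no list was tested as a set. Vesicle traffic and membrane transport had 7 of 28 called higher and 0 lower in the Dnmt1 lines, and 6 and 0 in the Dnmt3a,3b lines. At an unadjusted p under 0.05, limma placed 1 and 0 of its genes on the lower side. Keratins, matrix and cell shape had 8 higher and 4 lower of 35 in the Dnmt1 lines and 8 and 1 in the Dnmt3a,3b lines. In the DNA repair list 3 of 16 were called higher and 1 lower in the Dnmt1 lines and 4 and 0 in the Dnmt3a,3b lines, among them Rad51c, a recombination protein, which rose by 0.67 ± 0.09 and 0.60 ± 0.14 (limma adjusted p = 0.013 and 0.017), the first of them lost without 27H10 (limma adjusted p = 0.068). Cell division had 2 of 23 higher in either comparison, and the ribosome, translation and proteasome list 1 of 34. That last gene was Dhx58, a sensor of viral RNA rather than a translation factor, at 0.89 ± 0.50 and 1.02 ± 0.22 (limma adjusted p = 0.023 and 0.016), the first lost without 27H10 (limma adjusted p = 0.080). Lipid and central metabolism had 5 higher and 3 lower of 42, and 6 and 2; Sgsh, a lysosomal sulfatase, rose by 1.32 ± 0.05 and 1.30 ± 0.24 (limma adjusted p = 0.0048 and 0.0052) by its brightest probe, while its second probe gave 0.07 and 0.10. RNA processing had 1 higher and 2 lower of 30, and 1 and 1. Tnrc6c, a partner of Argonaute in microRNA silencing, rose by 0.60 ± 0.21 and 0.70 ± 0.15 (limma adjusted p = 0.022 and 0.015), the first lost without 27H10 (limma adjusted p = 0.11). Growth factor and cytoplasmic signalling had 5 higher and 9 lower of 40, and 4 and 6, and cytokines and chemokines 2 and 2 of 24, and 3 and 1. None of the 5 imprinted genes tested was called in either comparison by limma; at an unadjusted p under 0.05 there was 1 in each, on the higher side. Over all members the median mean ratio was 0.04 in the Dnmt1 and 0.06 in the Dnmt3a,3b lines, beside 0.01 and 0.01 over all genes.

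Trp53, Brca1, Nf1, Stat3 and Top2a, widely known genes of the chromosome, were not called in the Dnmt lines by limma. Trp53 read -0.40 in 27G5 and 0.40 in 27H10 in the Dnmt1 lines (limma adjusted p = 0.99) and 0.54 and 0.18 in the Dnmt3a,3b lines (limma adjusted p = 0.24). Its dye-swapped arrays disagreed, with 1.11 and -0.31 in the Dnmt1 line of 27H10, and its clone difference over wild type was -0.03. The second probe of Trp53 read -0.02 in 27G5 and 0.14 in 27H10 in the Dnmt1 lines. In the Dnmt3a,3b lines that probe read 0.08 and -0.04, and its clone difference was 0.05. Nf1 read 0.40 and 0.19 in the Dnmt1 lines (limma adjusted p = 0.081), and Brca1 0.12 and 0.36 (limma adjusted p = 0.25). By the brightest probe, clone differences over wild type were 0.20 for Nf1, 0.12 for Brca1, 0.39 for Stat3 and 0.20 for Top2a. Second probes gave 0.03 for Nf1, 0.15 for Brca1 and -0.03 for Stat3, and the other probes of Top2a 0.26 and 0.25.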

How the data were processed

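Per the file headers, the scanner files came from Agilent Feature Extraction 9.5.1.1 (8 arrays) and 9.1.3.1 (4 arrays with wild-type RNA) and held intensity values per spot and a log10 ratio as deposited. The authors' deposited value table holds log2 ratios that correlated with the scanner ratios, turned as here, at r = 0.968 or more; its column medians ran from -0.14 to 0.17, so its arrays were not centred alike. Mean signal was background-corrected (normexp, offset 50) and loess-normalised within arrays with limma 3.58.1 in R 4.3.3, and dye-swapped arrays were turned and averaged. The 6 ratios were fitted with 1 coefficient per comparison (3 residual degrees of freedom). Control spots, flagged outliers and probes with no position were left out of the members; precision is limited by the number of arrays and clones. The fit was tested on simulated data. Genes to be named were the 10 highest and 10 lowest called per comparison, up to 4 per list, the 15 most extreme escapees, the 15 members furthest in the direction of the shift, 3 members on each side of the escape threshold, and Trp53, Brca1, Stat3, Top2a, Nf1, Suz12 and Grb10; not all are printed, and Rpl19, Psmd3, Aurkb, Fasn, Nme1, Wap, Igtp, Irgm2 and the Hoxb genes were added after their values were seen. The members and lists were chosen with earlier results of these data known.

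The labels' replicate numbers mark the dye orientation of arrays that hold RNA of the same sources, so they pair no independent samples. The fit held no term for the clone, and a clone term shared by all comparisons was added as an alternative. Alternatives covered normalisation, the offset, the scanner ratio, the authors' table, the filter, probe averaging, each array and each clone left out, and stretch length. No genome of build mm7 was used; names and promoters came from RefSeq on GRCm38.p6.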

Additional observations from a re-analysis of the deposited data

Results flagged for a closer look

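The chromosome 11 median over wild type, relative to the other chromosomes, was positive on both arrays of 27G5 and negative on both of 27H10, a gap of 0.20 between the clones. With 1 RNA per clone the difference was not tested.

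Opposite signs in the clones were looked for only among the 15 most extreme escapees and the 15 highest members by clone difference. Trp53, Brca1, Stat3, Top2a, Nf1, Suz12 and Grb10 were looked at as well. For 6 of these genes the arrays of one clone lay above wild type and those of the other below. No such count was made over all members or over the other chromosomes. The clone differences were -0.78 for Ramp2 and -0.44 for Olfr1383, which were lower in 27G5, and 1.02 for Dhrs13, 0.98 for Abca5, 0.98 for Cldn7 and 0.88 for Myl4, a myosin light chain, which were higher in 27G5. None of these differences was tested, and the genes were picked from the extremes of the chromosome.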

How the results depend on the processing

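Of 126 summary values under alternatives, 93 stayed within the spread or within 1.5 times, and 33 moved; 1 of the 93, the gap of chromosome 11 in the Dnmt1 line of 27H10, changed sign, from 0.0159 to -0.0039 without the first array and 0.0321 without the second. Of 1477 values behind the calls of named genes, 0 changed sign, and values of named genes that were not called are left out of this count. Of 185 calls of named genes, 78 were kept under every alternative run, 95 were lost only without 1 clone and 12 under another alternative. The gap between chromosome 11 and the other chromosomes in 27G5 over wild type was 0.232 by the scanner log ratio and 0.232 by the authors' table, 0.161 with all members in every pairing and 0.171 with all probes of a gene averaged; with 1 array left out it ran from 0.171 to 0.189. In 27H10 it was -0.0286 by the scanner ratio and -0.0286 by the authors' table. In the Dnmt1 line of 27G5 it was 0.0799 and 0.0797 by these sources and 0.0453 to 0.0619 with 1 array left out, and in the Dnmt3a,3b line of 27H10 0.0198 to 0.0491. The median clone difference was 0.2878 by the scanner ratio and 0.2879 by the authors' table, and 0.2084 to 0.2348 with 1 array left out. In 5 Mb stretches, 91.3% lay above the other chromosomes in 27G5 and 30.4% in 27H10 over wild type, 82.6% in the Dnmt1 line of 27G5, and 78.3% and 65.2% in the Dnmt3a,3b lines of 27G5 and 27H10. Escaping members numbered 143 by the clone difference. With the chromosome 11 median taken off, an alternative added after the data were seen, 291 members were called higher and 323 lower over wild type. Without 1 clone, calls over wild type ran from 111 to 194 higher and from 72 to 139 lower, calls in the Dnmt1 lines from 93 to 172 higher and from 56 to 128 lower, and calls in the Dnmt3a,3b lines were 0 in both directions, where limma at an unadjusted p under 0.05 had 172 higher and 122 lower without 27G5 and 254 and 103 without 27H10. The clone left in is then assumed to vary like the other groups.

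With a term for the clone added to the fit, shared by all comparisons, 362 and 248 members were called over wild type. The counts were then 192 and 135 in the Dnmt1 lines and 189 and 120 in the Dnmt3a,3b lines. The 12 arrays were also fitted singly, with the array number as a covariate and the pairing as a block (correlation 0.58 between its arrays). Dye swaps then count as correlated replicates. In that fit the Dnmt1 lines had 297 called higher and the Dnmt3a,3b lines 289 higher and 173 lower. Dim spots limit the ratios, and the number of clones limits every test.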
